A study of Mus musculus with 6 samples.

Results

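The 77 mouse genes described here carry the symbols of mitochondrial ribosomal proteins, Mrpl for the large subunit (48 genes) and Mrps for the small subunit (29 genes). They were taken by symbol, Mrpl or Mrps followed by a number and at most 1 letter, from the 22281 features of a Drop-seq count table. Drop-seq captures cells in droplets with barcoded beads and counts transcripts near their 3' end, each molecule as 1 UMI. Counts were summed over the cells of a class in each library, and YAP5SA hearts were compared with Control hearts. Control mice carried Myh6-MCM, a Cre recombinase driven by the cardiomyocyte promoter Myh6 that tamoxifen activates. YAP5SA mice carried in addition the transgene Yap5SA+/tg, a form of the Hippo pathway coactivator YAP that the Lats kinases cannot phosphorylate. Adult mice of both genotypes received tamoxifen, so that the Cre and the drug are shared by all 6 libraries. In each genotype 1 library held cardiomyocytes settled by gravity (enriched) and 2 held all fractions of the digested heart put back together (tissue). No label ties a library to an animal, so p-values measure only the spread between these libraries, which may be technical.

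Mitochondria have ribosomes of their own, built from RNAs encoded in mitochondrial DNA and from proteins that the nucleus encodes and the cytosol delivers. They make the few mitochondrially encoded subunits of the respiratory chain and of ATP synthase, and adult cardiomyocytes, which are packed with mitochondria, depend on them. Many of the proteins have bacterial counterparts, while others arose in mitochondria and surround the core. Some names mislead: Mrps30 and Mrps18a encode proteins of the large subunit, and Mrps36 encodes a part of the ketoglutarate dehydrogenase complex of the citric acid cycle.

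The libraries held 1405 to 5860 cells and 3382656 to 13483791 UMIs each, and 10 of 21696 barcodes occurred in more than 1 library. Cardiomyocytes (the authors' clusters CM1, CM2, CM3 and YAP5SAcm) numbered 576 to 1173 per Control library and 282 to 1004 per YAP5SA library, with 2880730 to 7313337 and 1059553 to 4432720 UMIs. All 6 cardiomyocyte markers listed, among them Myh6 and Tnnt2, had their highest level in this class. A member had a median of 78.0 to 821 UMIs per library in it. Libraries are named as in the deposited table of cells, and sets of 3 values are given in the order enriched, tissue-2, tissue-3 for Control and enriched, tissue-1, tissue-2 for YAP5SA. Overlapping genes carry hyphenated names in 4 libraries, but not in Control tissue-3 and YAP5SA enriched. Joined names were merged for all libraries, which affects 7 members (Mrpl33, Mrpl51, Mrpl53, Mrps18c, Mrps24, Mrps34 and Mrps6), whose counts include an overlapping gene and are uncertain.

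The promoters are shown because the members moved together, and because nuclear respiratory factor 1 (NRF1) and GA-binding protein, an ETS factor, are known regulators of nuclear genes for mitochondria. RefSeq promoters (GRCm38.p6) were found for 68 of the 77 members, 74 promoters in all, and searched over the 250 bases before the transcript start, on both strands. The NRF1 core GCATGCGC stood in 10.8% of member promoters, against 2.26% of all 32851 promoters and 4.34% of the 10477 promoters of genes tested in cardiomyocytes. The ETS core CCGGAAG stood in 23.0% of member promoters, against 6.91% of all and 13.9% of those tested. The YY1 core AAGATGGC stood in 5.41%, 1.56% and 2.01% of these promoters, and the core of the TEAD factors, which YAP binds, GGAATG, in 9.46%, 12.6% and 10.8%. Below are 5 promoters, 5′ to 3′, each ending at the base before the start, with NRF1 and ETS cores in capitals.
Mrpl1: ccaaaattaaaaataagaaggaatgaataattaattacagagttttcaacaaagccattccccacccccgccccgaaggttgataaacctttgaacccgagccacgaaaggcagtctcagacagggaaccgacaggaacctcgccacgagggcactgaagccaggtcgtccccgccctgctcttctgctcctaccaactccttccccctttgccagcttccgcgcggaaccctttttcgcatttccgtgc
Mrpl3: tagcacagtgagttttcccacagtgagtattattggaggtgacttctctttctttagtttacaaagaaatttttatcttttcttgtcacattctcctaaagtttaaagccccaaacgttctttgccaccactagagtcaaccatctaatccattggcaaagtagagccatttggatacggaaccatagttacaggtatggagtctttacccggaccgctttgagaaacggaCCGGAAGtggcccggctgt
Mrps18a: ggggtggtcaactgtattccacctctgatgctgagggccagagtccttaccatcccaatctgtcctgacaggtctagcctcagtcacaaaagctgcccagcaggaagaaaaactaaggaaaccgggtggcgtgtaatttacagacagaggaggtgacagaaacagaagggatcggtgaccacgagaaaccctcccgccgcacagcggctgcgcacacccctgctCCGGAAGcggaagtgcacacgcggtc
Mrpl10: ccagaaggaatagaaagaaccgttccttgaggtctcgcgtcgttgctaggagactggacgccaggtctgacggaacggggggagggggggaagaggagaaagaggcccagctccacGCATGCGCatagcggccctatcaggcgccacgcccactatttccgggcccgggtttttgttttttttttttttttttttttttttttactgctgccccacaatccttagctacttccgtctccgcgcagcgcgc
Mrpl52: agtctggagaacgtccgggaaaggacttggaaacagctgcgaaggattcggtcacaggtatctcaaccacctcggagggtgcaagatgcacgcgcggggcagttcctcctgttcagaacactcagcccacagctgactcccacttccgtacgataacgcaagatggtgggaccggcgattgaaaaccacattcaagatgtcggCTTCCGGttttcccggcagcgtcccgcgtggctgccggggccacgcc
Mrpl1 (plus strand, chr5:96209865-96210114) was among the 6 members with the most negative fold changes. It has neither core in this window, but a TEAD core on each strand, left in lower case. Mrpl3 (plus strand, chr9:105053018-105053267) and Mrps18a (plus strand, chr17:46110754-46111003) fell and have an ETS core, which begins 19 and 26 bases before the start. Mrpl10 (plus strand, chr11:97041332-97041581), with an NRF1 core, and Mrpl52 (plus strand, chr14:54426659-54426908), with an ETS core on the other strand, were among the 6 with the least negative fold changes. Of the 8 genes with an NRF1 core 3 were called lower in YAP5SA cardiomyocytes (median log2 fold change -1.07), and of the 60 without it 51 (-1.42). With an ETS core 15 of 17 were called (-1.36), and without it 39 of 51 (-1.35). With a TEAD core 7 of 7 were called (-1.46), and without it 47 of 61 (-1.33). With a YY1 core 3 of 4 were called (-1.22), and without it 51 of 64 (-1.37). A match describes these letters and shows neither binding nor its absence.

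In Control hearts the members took more of the transcripts of cardiomyocytes than of any other class. Summed over the 77 members they made 11571, 12126 and 11913 UMIs per 1000000 UMIs (CPM, with the library's total in the class as the scale) in Control cardiomyocytes. The YAP5SA sums were 9466, 7883 and 6600 CPM. All 3 YAP5SA libraries lay below all 3 Control libraries. The mean was 11870.1 ± 280.1 CPM in Control and 7983 ± 1436 CPM in YAP5SA (SD, n = 3 libraries each), a ratio of 0.673. The sums of Mrpl names and of Mrps names stayed in a ratio of 2.15 to 2.46 in Control and 2.04 to 2.26 in YAP5SA. Across the other 7 classes the library sums ran from 4494 to 8005 CPM in Control and from 5317 to 7984 CPM in YAP5SA. Some of these classes overlap and others do not: in YAP5SA macrophages had 7554 to 7984 CPM and monocytes 7604 to 7931 CPM, above endocardial cells at 5404 to 6691 CPM and fibroblasts at 6585 to 7289 CPM. In Control smooth muscle cells had 6152 to 8005 CPM and epicardial cells 4736 to 5365 CPM. Between genotypes, the YAP5SA libraries lay above both Control libraries in macrophages (5234 and 7327 CPM) and in monocytes (4494 and 7335 CPM), differences that were not tested as sums.

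**Figure D1:**
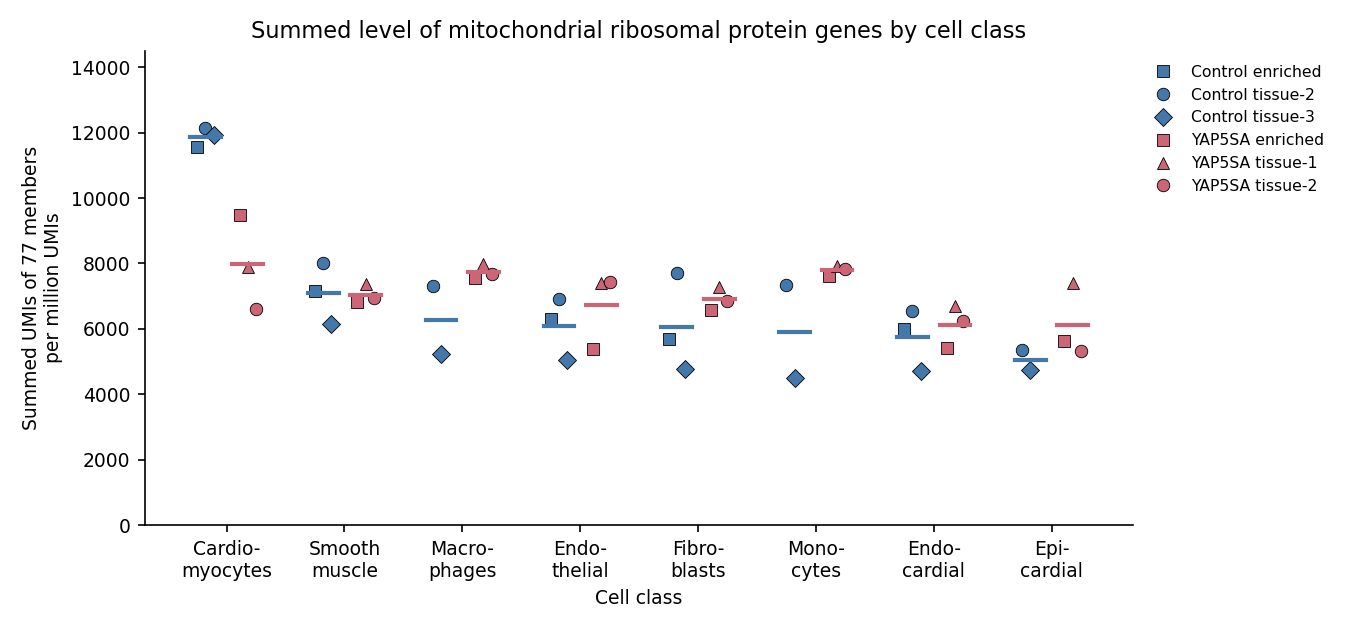
Summed UMIs of the 77 members per 1000000 UMIs of each cell class (vertical axis) by class (horizontal axis); points are libraries with at least 10 cells of the class and lines are genotype means. Control cardiomyocytes stand at 11571 to 12126, YAP5SA cardiomyocytes at 6600 to 9466, and all other classes between 4494 and 8005.

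Within a library, 63 of the 77 members in Control enriched, 70 in Control tissue-2 and 75 in Control tissue-3 were higher in cardiomyocytes than in fibroblasts. The count was 65 in YAP5SA enriched, 42 in YAP5SA tissue-1 and 41 in YAP5SA tissue-2. In macrophages the same comparison gave 71 and 72 members for the 2 Control tissue libraries, and 50, 28 and 27 for the YAP5SA libraries. The excess of cardiomyocytes over the other cells was thus smaller by these counts in both YAP5SA tissue libraries, where the summed level was 0.962 to 1.08 times that of fibroblasts, than in Control, where it was 1.58 to 2.49 times. Control enriched had 10 fibroblasts, so that its values rest on few cells.

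In cardiomyocytes 63 of the 77 members were called lower in YAP5SA and 0 higher, by edgeR's quasi-likelihood test at an adjusted p of 0.05 with TMM scaling, which centres libraries on the bulk of genes. Over all 11806 features tested 12.1% were called lower and 13.3% higher. All 77 fold changes were below 0, with a median log2 fold change (YAP5SA against Control, as everywhere below) of -1.36, against 0.06 over all features. With library totals alone as the scale 15 members were called lower and 0 higher, against 3.74% of features lower, and 73 of the 77 were below 0 with a median of -0.48. That scaling moved the median of all features to 0.91 and the split of all calls from 1570 higher and 1429 lower to 4350 higher and 441 lower. Relative to the median of all features the members' median was -1.42 with TMM and -1.39 with library totals. On unscaled levels 43 members had every YAP5SA library below every Control library, against 7.15% of features, and 1 member, Mrps6, named after its values were seen, had every YAP5SA library above.

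**Figure D2:**
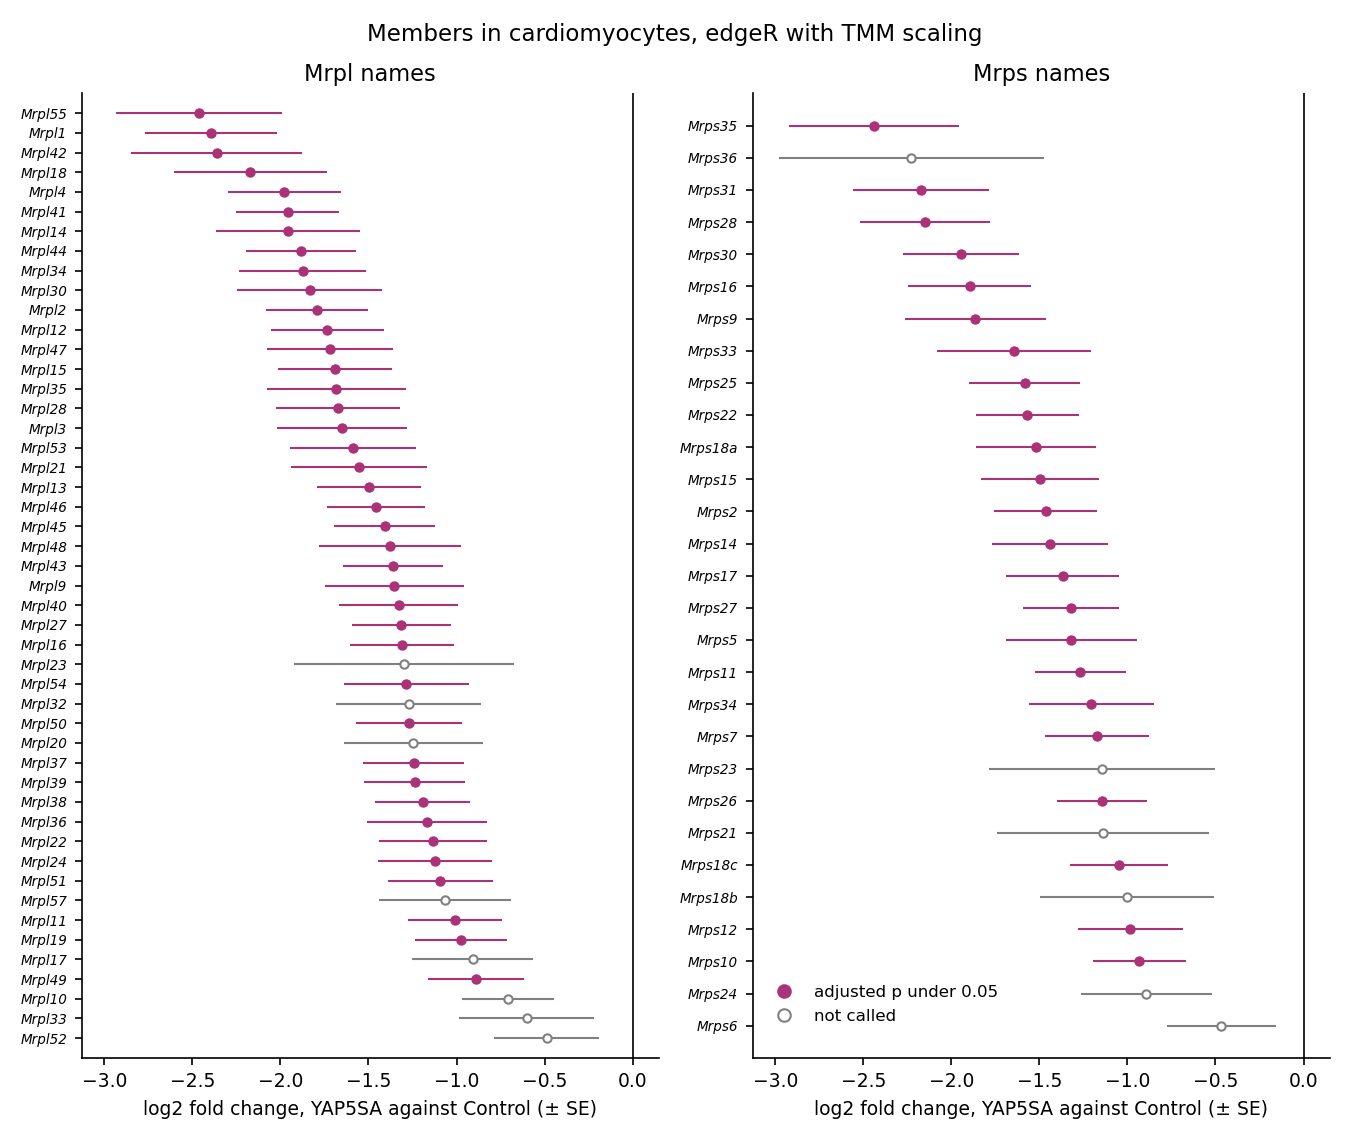
Log2 fold change of each member in cardiomyocytes (horizontal axis, with its SE) for Mrpl names and Mrps names (vertical axis, ordered); filled points passed an adjusted p of 0.05 in edgeR and open points did not. All 77 points lie left of 0, from -2.46 for Mrpl55 to -0.47 for Mrps6.

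The number of calls moved with the libraries and cells used, for the members as for all features, of which 1429 were called lower with all 6 libraries. Without YAP5SA tissue-2 edgeR called 0 members and 4 of all features lower. Leaving out YAP5SA tissue-1 gave 1 member and 72 features, and leaving out YAP5SA enriched gave 41 members and 619 features. The counts were 42 and 640 without Control enriched, 70 and 2209 without Control tissue-2, and 43 and 708 without Control tissue-3. Without the cells of YAP5SAcm edgeR called 0 members and 0 of all features lower, and 16 features higher. There 42 of the 77 members had an unadjusted p under 0.05, against 1808 of 10305 features. All 77 members were below 0 in each of these fits. DESeq2 called the same 63 among 69, with 1765 of all features called lower and 1710 higher.

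The core of the large subunit, which joins amino acids, fell in all 4 members listed. Mrpl2, next to the catalytic centre, stood at 170.1, 137 and 136 CPM (library totals as scale, here and for each member below) in Control, and at 86.0, 81.2 and 66.6 CPM in YAP5SA. Every YAP5SA library was below every Control library, and the log2 fold change was -1.79 (SE 0.29, edgeR adjusted p = 0.0094). Mrpl4 had 155, 146 and 171 CPM in Control and 81.4, 70.8 and 69.8 in YAP5SA, in the same order (log2 fold change -1.98, SE 0.32). Its groups did not overlap either. Mrpl3, at 100.3, 73.7 and 108 CPM in Control and 56.6, 40.6 and 70.6 in YAP5SA, fell by 1.65 on the log2 scale. Mrpl16, at 83.7, 74.9 and 85.5 CPM in Control and 67.9, 50.0 and 64.3 in YAP5SA, fell by 1.31. Mrps30 and Mrps18a, large subunit proteins despite their names, fell by 1.95 and 1.52. Mrps30 had 69.4, 53.2 and 58.4 CPM in Control and 38.4, 31.1 and 18.2 in YAP5SA, again without overlap. Mrps18a had 164, 265 and 158 CPM in Control and 154, 111 and 104 in YAP5SA, and YAP5SA enriched lay just below the lowest Control library.

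The stalk of the large subunit, which recruits the translation factors, was represented by 3 members, of which 2 were called lower. Mrpl12, its flexible part, had 349, 379 and 331 CPM in Control, and 221, 193 and 169 CPM in YAP5SA. The groups did not overlap, with a log2 fold change of -1.73 (SE 0.32, edgeR adjusted p = 0.012). Mrpl11, at the stalk base, had 112, 118 and 104 CPM in Control and 105, 107 and 92.0 in YAP5SA. These unscaled values overlap, and its call (log2 fold change -1.01, edgeR adjusted p = 0.032) came with TMM scaling; with library totals it was -0.14. Mrpl10, the base protein that carries Mrpl12, was not called (-0.71, SE 0.26, edgeR adjusted p = 0.084), with 51.7, 55.5 and 42.1 CPM in Control and 45.6, 70.8 and 50.8 in YAP5SA. Its fold change turned to 0.15 with library totals.

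Around the exit tunnel, through which new chains leave towards the inner membrane, 4 of 6 members listed were called lower. Mrpl45, which holds the ribosome at the membrane, had 124, 110.2 and 113 CPM in Control and 93.6, 77.4 and 70.6 in YAP5SA, without overlap (log2 fold change -1.41, SE 0.29). Mrpl44 fell by 1.88, Mrpl22 by 1.14 and Mrpl24 by 1.12 on the log2 scale. Mrpl24 had 92.0, 122 and 79.2 CPM in Control and 104, 86.8 and 54.7 in YAP5SA, with overlap. Mrpl17 (-0.91) and Mrpl23 (-1.30, SE 0.62, edgeR adjusted p = 0.167) were not called. Mrpl23 had 60.1, 9.40 and 45.1 CPM in Control and 38.8, 26.4 and 22.2 in YAP5SA, so that Control tissue-2 was the lowest of all. In the central protuberance, the crown of the large subunit, 6 of 7 members fell, led by Mrpl18 at -2.17, and Mrpl52 (-0.49, edgeR adjusted p = 0.258) was not called.

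The core of the small subunit, which reads the messenger RNA, also fell in all 4 members listed, with log2 fold changes of -1.47 for Mrps2, -1.32 for Mrps5, -1.17 for Mrps7 and -0.98 for Mrps12 (edgeR adjusted p = 0.049). Mrps12, which lies at the decoding centre, had 112, 104 and 105 CPM in Control and 112, 110.4 and 76.96 in YAP5SA. Mrps5 had 52.4, 40.5 and 64.3 CPM in Control and 42.0, 47.2 and 29.4 in YAP5SA, and Mrps7 62.1, 93.7 and 56.3 against 67.7, 56.6 and 44.4. The unscaled groups overlap for these 3, and with library totals 0 of the 4 were called by edgeR. Mrps2 is the 1 of the 4 without overlap, at 21.2, 19.1 and 15.7 CPM in Control and 11.3, 11.3 and 14.3 in YAP5SA. By name, 40 of 48 Mrpl and 23 of 29 Mrps members were called lower, with medians of -1.36 and -1.37. Of members with bacterial counterparts 37 of 47 were called (median -1.35), and of those particular to mitochondria 26 of 29 (-1.36). Leaving aside the members with joined names, 59 of 70 were called (-1.39).

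Of the 6 most negative fold changes, among members with a mean log2 CPM of 5 or more, 5 were called: Mrpl55, Mrps35, Mrpl1, Mrpl42 and Mrps31. The remaining one, Mrps36, was not. Mrpl42, a mitochondria-specific protein of the large subunit, had 952, 755 and 1134 CPM in Control and 529.9, 332 and 226 in YAP5SA, a fold change of -2.36 (log2, SE 0.48, edgeR adjusted p = 0.016). Mrpl55 had 170.1, 180.4 and 198 CPM in Control and 108, 59.5 and 32.5 in YAP5SA (-2.46, SE 0.47). For both genes YAP5SA enriched lay between the Control libraries and the YAP5SA tissue libraries. Mrpl1, whose bacterial counterpart forms the arm that releases spent transfer RNA, had 116, 69.6 and 101.6 CPM in Control and 49.0, 33.0 and 22.2 in YAP5SA (-2.40, SE 0.38). Mrps35 of the small subunit had 173, 98.1 and 195 CPM in Control and 65.6, 66.1 and 32.5 in YAP5SA (-2.44, SE 0.48). Mrps31 had 101.0, 70.2 and 108 CPM in Control and 55.3, 27.4 and 36.5 in YAP5SA (-2.17, SE 0.39). All 5 were also called with library totals, and their groups did not overlap.

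At the other end were Mrps6, Mrpl52, Mrpl33, Mrpl10, Mrpl49 and Mrps24, of which edgeR called Mrpl49 alone (-0.89, adjusted p = 0.0495). Mrps6, a counterpart of a bacterial protein of the small subunit, had 73.2, 101 and 112 CPM in Control and 125, 127 and 125 in YAP5SA. Its fold change was -0.47 with TMM scaling and 0.42 with library totals, and neither passed the test. Mrpl49, a mitochondria-specific protein of the large subunit, had 33.3, 53.8 and 33.1 CPM in Control and 40.8, 37.8 and 36.5 in YAP5SA, with overlap. Mrpl52 went from -0.49 to 0.37 and Mrpl33 from -0.60 to 0.22 between the scalings, so that the direction of these members depends on the scale. Mrpl33 had 464, 965 and 429.6 CPM in Control and 702, 786 and 638 in YAP5SA. Mrps24 had 357, 326 and 385 CPM in Control and 441, 372 and 264 in YAP5SA, with overlapping groups (-0.89, not called). The counts of Mrps6, Mrpl33 and Mrps24 include an overlapping gene.

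**Figure D3:**
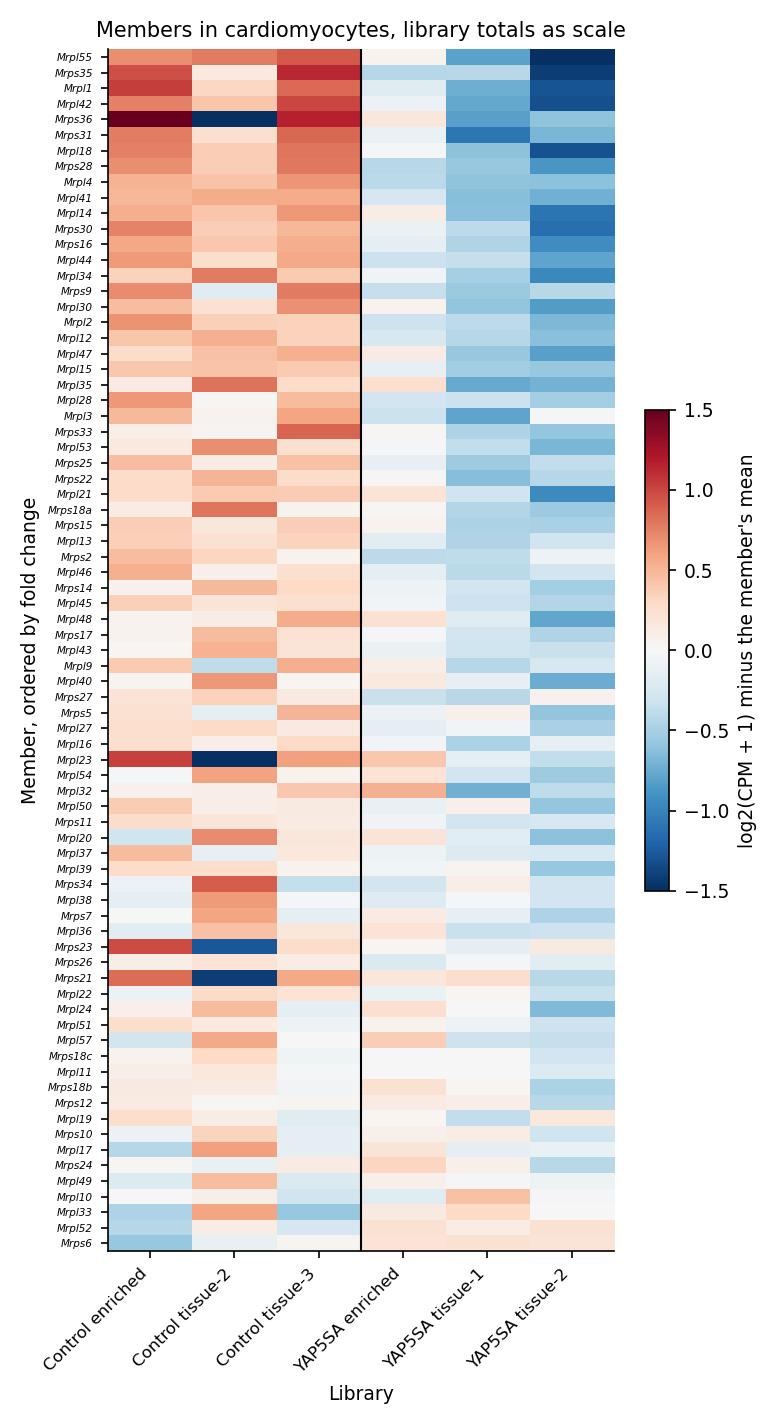
Level of each member in cardiomyocytes by library (horizontal axis), as log2(CPM + 1) with library totals as scale minus the member's mean over the 6 libraries; members are ordered by fold change (vertical axis) and colours stop at 1.5 either side of 0. Control columns are mostly red and YAP5SA columns mostly blue in the upper rows, and the 2 are mixed in the lower rows, where Mrps6 is above in all 3 YAP5SA libraries.

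Control tissue-2 stood apart in 4 members, picked after their values were seen: Mrpl23, Mrps21, Mrps23 and Mrps36. Over all its cells Mrpl23 stood at 7.65 CPM, against 35.5 to 56.5 in the other 5 libraries, and Mrps21 at 52.8 against 126 to 289. Mrps23 stood at 1.32 against 4.005 to 12.1, and Mrps36 at 4.42 against 13.2 to 63.9. The same library was low in these genes in other classes: in macrophages Mrps21 had 47.2 CPM, against 113 in Control tissue-3 and 117 to 162 in YAP5SA. None of the 4 was called in cardiomyocytes, and the cause was not tested. Mrps36, the ketoglutarate dehydrogenase component, had 70.1, 7.05 and 51.0 CPM in Control cardiomyocytes and 25.3, 12.3 and 14.3 in YAP5SA (-2.23, SE 0.75, edgeR adjusted p = 0.071).

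The authors' clusters differ in their member levels, as a description, since they were drawn from the same transcripts. In Control the sum was 12527, 12898 and 12803 CPM in CM1, and 5951, 8619 and 6705 CPM in YAP5SAcm. YAP5SAcm cells of YAP5SA libraries had 8108, 7695 and 6373 CPM, a range that overlaps with that of the Control cells of this cluster. With mitochondrially encoded UMIs left out of the total the groups of YAP5SAcm no longer overlapped, though by a narrow margin. They stood at 8946 to 9881 CPM in Control and 6947 to 8896 CPM in YAP5SA, and the ratio of means turned from 1.04 to 0.855. Mitochondrially encoded transcripts made 36.5%, 12.8% and 25.1% of the UMIs of the Control cells of this cluster and 8.86%, 7.04% and 8.25% of those of the YAP5SA cells. This cluster held 1.498% to 8.68% of the cardiomyocytes of Control libraries and 47.9% to 72.0% of those of YAP5SA libraries. In cells this was 16, 50 and 33 in Control and 481, 212 and 203 in YAP5SA, so that its Control sums rest on few cells. In CM1 the sum was 11409, 9578 and 8093 CPM in YAP5SA, below all Control libraries. In CM3, lower in both genotypes, it was 8062 to 8557 CPM in Control and 8076, 5307 and 4476 CPM in YAP5SA. In CM2 the 2 groups overlapped.

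**Figure D4:**
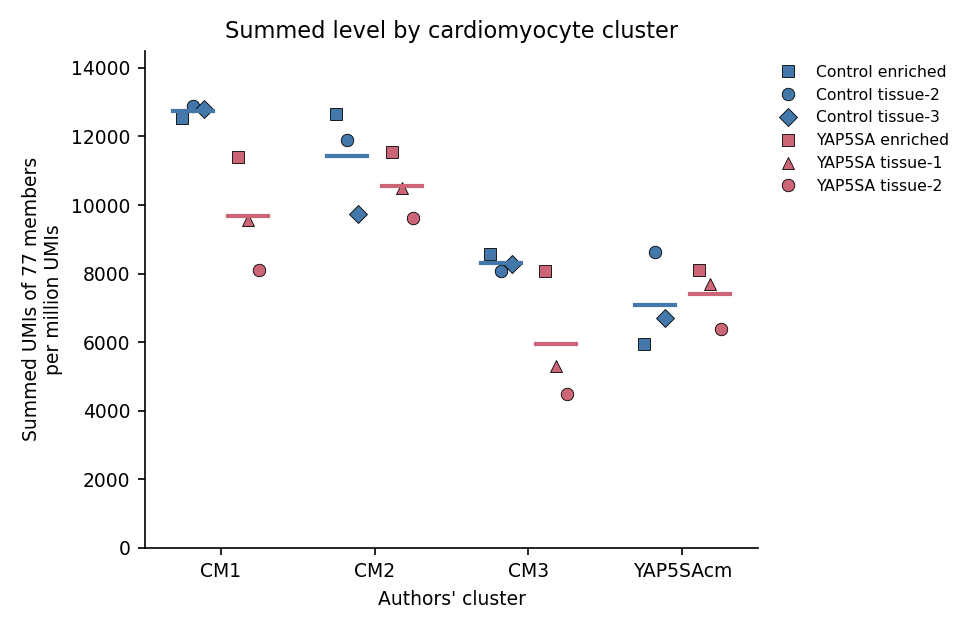
Summed UMIs of the 77 members per 1000000 UMIs (vertical axis) in each cardiomyocyte cluster (horizontal axis); points are libraries and lines are genotype means. In CM1 Control stands at 12527 to 12898 and YAP5SA at 8093 to 11409, and in YAP5SAcm the genotypes overlap between 5951 and 8619. With mitochondrially encoded UMIs left out of the total they narrowly do not (Control 8946 to 9881, YAP5SA 6947 to 8896). The Control points of YAP5SAcm rest on 16 to 50 cells.

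Within single cardiomyocyte clusters edgeR called 0 or 1 member. Few features were called in CM1 and CM3, while in CM2 and YAP5SAcm the share of members called was below that of features. In CM1 0 of 76 passed (median -0.89), against 0.0217% of features called. An unadjusted p under 0.05 was found for 41 of them, against 1226 of all 9229 features. In CM2 0 of 61 passed (-0.66), against 4.66% of features, and in CM3 0 of 72 (-0.84), against 0% of features. An unadjusted p under 0.05 was found in CM2 for 14 members, no larger a share than for all features (672 of 2639). In CM3 it was found for 18, against 805 of 4872 features. YAP5SA tissue-2 held 0 to 35 UMIs per member in CM2. In YAP5SAcm 1 of 73 was called, Mrpl2 at -1.36, against 8.62% of features, and the median was -0.35. Of the 73 members 60 were below 0 and 13 above. An unadjusted p under 0.05 was found there for 6 members, a smaller share than for all features (1456 of 6997). In CM1, CM2 and CM3 together 0 of 77 were called (median -0.92), against 0.155% of features. An unadjusted edgeR p under 0.05 was found for 42 of the 77, against 1808 of all 10305 features. All 77 fold changes were below 0 there too. Without Control tissue-2 the count, in either direction, was 13 in CM1, 13 in CM2 and 3 in CM3, given without the share of all features. In the fit of all cardiomyocytes leaving out that library raised the features called from 2999 to 4605. In YAP5SAcm the count of members was 1 without Control enriched and 0 without any other single library.

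Other cells of the same hearts gave 0 member calls by edgeR in each of 7 classes. In fibroblasts 0 of 75 members passed (median 0.19), against 2.02% of features called, and in macrophages 0 of 77 (0.17), against 0.616%. In endothelial cells it was 0 of 71 (0.04) and in monocytes 0 of 61 (0.31), with 0% of features called in either. In endocardial cells 0 of 25 were called (0.23, 0% of features), and in smooth muscle cells 0 of 10 (0.18, 0%). In epicardial cells it was 0 of 30 (0.36), against 0.577% of features. An unadjusted edgeR p under 0.05 was found for 1 member in fibroblasts, against 929 of 11416 features. In macrophages it was found for 2, against 1245 of 12823 features. The counts were 1 in endothelial cells (631 of 6169 features) and 2 in monocytes (357 of 4675). They were 0 in endocardial cells (135 of 2504), 2 in smooth muscle cells (66 of 1281) and 0 in epicardial cells (175 of 2598). Counts were low in the smaller classes: Control enriched held 0 to 9 UMIs per tested member in endocardial cells and 3 to 17 in smooth muscle cells. In macrophages and monocytes members were also called in some fits that left 1 Control library. Without Control tissue-3 the count, in either direction, was 2 in fibroblasts, given without the share of all features. It was 0 in the other 4 classes whichever library was left out.

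Among fibroblast and macrophage clusters 2 members were called, both higher and both among the 4 that are low in Control tissue-2. Mrpl23 in the cluster CF4 had 3 and 1 UMIs in the Control tissue libraries and 13, 20 and 30 in YAP5SA (log2 fold change 2.58, edgeR adjusted p = 0.038). Mrps21 in Mac1 had 9 and 1 UMIs in Control and 94, 136 and 267 in YAP5SA (2.16, edgeR adjusted p = 0.017). In CF4 the levels of Mrpl23 overlap, at 3.57 and 85.9 CPM in Control, the latter from the single UMI of tissue-3, and 26.2, 40.02 and 24.1 CPM in YAP5SA. In Mac1 those of Mrps21 do not, at 34.8 and 22.3 CPM in Control and 122, 158 and 144 CPM in YAP5SA. The number of members called in CF4 was 0 without Control tissue-2, YAP5SA tissue-1 or YAP5SA tissue-2, and 2 without Control tissue-3. In Mac1 it was 6 without Control tissue-2 and 0 without any single YAP5SA library. The share of features called was 2.38% in CF4 and 1.5% in Mac1. No member was called by edgeR in CF1, CF2 and CF3, where 0% of features were called, nor in Mac2 (0.792% of features) and Mac4 (1.42%). An unadjusted edgeR p under 0.05 was found for 0 of 37 members in CF1, against 153 of 3029 features. In CF2 it was found for 1 of 70, against 417 of 7145, and in CF3 for 0 of 75, against 510 of 10188. In Mac2 it was found for 3 of 74, against 744 of 8707 features, and in Mac4 for 4 of 75, against 1021 of 10803.

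The genotype effect itself differed between cardiomyocytes and other cells. With each library fitted as a block, 49 of 76 members were more lowered in cardiomyocytes than in fibroblasts (median difference of log2 fold changes -1.46, against 6.69% of features). Against macrophages it was 60 of 77 (-1.66, against 7.25%), and against endothelial cells 53 of 76 (-1.67, against 7.06%). The macrophage comparison held 2 Control libraries, both tissue, and 3 YAP5SA libraries, of which 1 was enriched. The fit had no term for class by preparation, so there genotype and preparation cannot be fully told apart. No member was more raised in cardiomyocytes by edgeR, and all members tested had differences below 0. For Mrpl12 the difference was -1.85 from fibroblasts (SE 0.54, edgeR adjusted p = 0.0082), -2.10 from macrophages and -1.60 from endothelial cells. For Mrpl55 it was -2.20, -2.19 and -2.21. With library totals alone the counts were 9, 18 and 8, given, like those that follow, without the share of all features called. Leaving out Control tissue-3 gave 12, 18 and 25, and leaving out YAP5SA tissue-1 gave 10, 36 and 27. Leaving out YAP5SA tissue-2 gave 6 for fibroblasts and 30 for endothelial cells.

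Other genes of mitochondrial gene expression fell beside the members, in a fit where 12.1% of all features were called lower and 13.3% higher. Of mitoribosomal proteins with other symbols 6 of 6 were called lower (median -1.57), among them Ptcd3 at -1.79 and Ict1, a hydrolase built into the large subunit, at -1.91. Of mitochondrial translation factors 13 of 15 fell (-1.74), led by Taco1, an activator of cytochrome oxidase subunit translation, at -2.48, and Gfm2, which takes spent ribosomes apart, at -1.83. Taco1 had 33.3, 26.4 and 27.9 CPM in Control and 10.4, 11.3 and 7.14 in YAP5SA, without overlap. Of ribosome assembly factors 9 of 24 fell (-1.10), such as Rbfa (-1.53) and Mterf3 (-1.96). Of mitochondrial tRNA synthetases and related enzymes 5 of 19 fell (-0.83), with Cars2 at -1.73 and Gatb at -1.23. Of genes that maintain and transcribe mitochondrial DNA 4 of 11 fell (-1.03), including Mterf2 (-3.21) and the transcription elongation factor Tefm (-2.12). With TMM scaling edgeR called no gene of these 5 lists higher. With library totals it called 1 higher in each of 2 lists, the assembly factor Dhx30 (1.09) and the mitochondrial DNA polymerase Polg (2.02), both named after their values were seen.

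The transcripts that mitochondrial ribosomes translate did not pass the test. Of 7 mitochondrially encoded genes 0 were called by edgeR (median -1.51). An unadjusted p under 0.05 was found for 6 of them, against 4737 of all 11806 features. Among the 7 genes mt-Cytb, for cytochrome b, had 26597, 26813 and 26932 CPM in Control and 20321, 16476 and 15389 in YAP5SA, without overlap (-1.51, edgeR adjusted p = 0.062). The fold change of mt-Nd6 was -1.76 (edgeR adjusted p = 0.056). Nuclear subunits of the respiratory chain fell in 71 of 77 (-2.07), such as Sdhb (-2.90) and Ndufa9 (-2.40), and citric acid cycle genes in 11 of 13 (-2.14), such as Idh3b (-2.99) and Fh1 (-2.43). Protein import genes fell in 9 of 25 (-0.92), such as Timm44 (-1.72) and Timm21 (-2.22). Cytosolic ribosomal protein genes, the members' counterparts outside mitochondria, gave 0 of 77 calls by edgeR (-0.37, 1 at an unadjusted p of 0.05). Of 13 regulators of mitochondrial biogenesis 2 were called higher and 3 lower, against 13.3% and 12.1% of all features. The 2 higher calls lie near that share. The coactivator Pprc1 (2.45) and Myc (1.93) rose, and Ppargc1b (-1.28), Tfam (-1.70) and Esrrg (-1.58) fell. Nrf1 (0.90) and Gabpa (-0.30) were not called. By library totals 3 regulators were called higher, Pprc1, Myc and Nrf1 (1.72), and 0 lower. That scale called 4350 of all 11806 features higher and 441 lower. With library totals the medians shifted upwards and 3 turned above 0: tRNA synthetases to 0.04, biogenesis regulators to 0.36 and cytosolic ribosomal proteins to 0.51. Import genes went to -0.07, genes of mitochondrial DNA to -0.11 and assembly factors to -0.23. Translation factors went to -0.85, mitoribosomal proteins with other symbols to -0.69 and mitochondrially encoded genes to -0.63. The respiratory chain went to -1.16 and the citric acid cycle to -1.23.

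**Figure D5:**
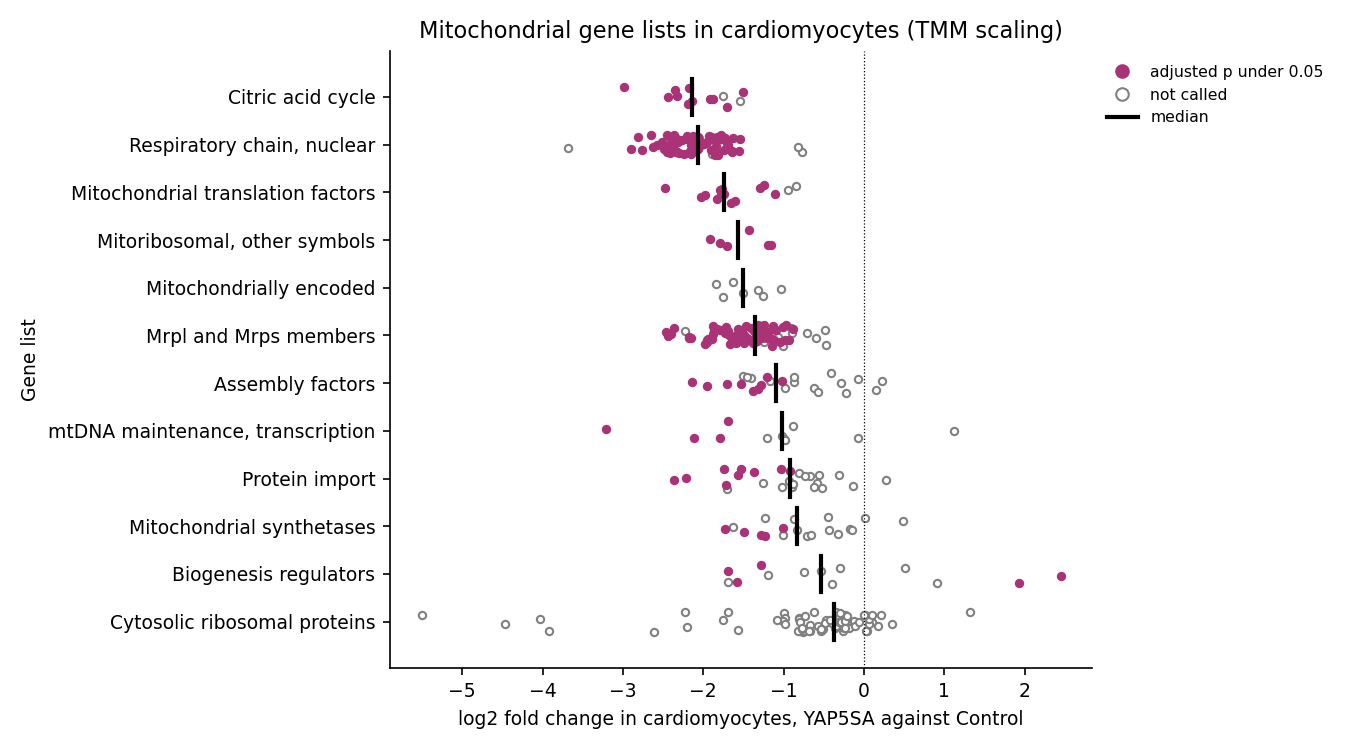
Log2 fold changes in cardiomyocytes (horizontal axis) of the members and of 11 other gene lists (vertical axis); each point is a gene, filled where edgeR's adjusted p was under 0.05, and bars are medians. The members' median of -1.36 lies between -2.07 for nuclear respiratory chain genes and -0.37 for cytosolic ribosomal protein genes.

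Markers of other cells moved with the genotype in the cardiomyocyte sums. The 5 smooth muscle markers summed to 78.5 to 193 CPM in Control and 2987 to 3327 CPM in YAP5SA, most of it Acta2 (33.0 to 167 and 2859 to 3210 CPM), while Myh11 had 0.957 to 2.64 and 35.0 to 76.96 CPM. The 6 macrophage markers summed to 6.94 to 114 and 168 to 465 CPM, and the 5 epicardial markers to 1.76 to 3.83 and 36.5 to 72.7 CPM. The 4 endocardial markers summed to 6.60 to 13.0 and 38.4 to 53.2 CPM. The 6 fibroblast markers summed to 132 to 588 and 421 to 536 CPM, and the 6 endothelial markers to 253 to 405 and 299 to 724 CPM. At 0 were Cytl1 in YAP5SA tissue-1, Vtn in Control tissue-2, Adgre1 and Krt19 in Control enriched, and Upk3b and Upk1b in Control tissue-2. The 6 macrophage markers stood at 9790 CPM in macrophages themselves. The 6 cardiomyocyte markers summed to 49660 to 64104 CPM in Control and 22636.5 to 31755 CPM in YAP5SA. The part of these transcripts in the members' result was not tested. The share of mitochondrially encoded UMIs was 7.79% to 16.1% in Control and 9.53% to 10.6% in YAP5SA.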

How the data were processed

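Drop-seq libraries were processed upstream with Picard, STAR and Seurat 2.3.4, per the submitters' processing notes; the genome build and annotation are not given in the sources used here. The authors deposited a table of raw UMI counts and a table of cells with library and cluster; every count is a whole number. The deposited table of scaled values was not used. Here 854 joined names were merged (21205 features), 1210 features counted under 1 annotation alone were not tested, and counts were summed per library and class, with at least 10 cells. Doublets were not removed. edgeR 4.0.16 in R 4.3.3 (TMM, filterByExpr, robust quasi-likelihood F test, preparation and genotype as terms) was fitted over all features, with Benjamini-Hochberg adjustment at 0.05; DESeq2 1.42.0, other scalings, other filters and left-out libraries were alternatives. The script was tested on simulated data. Members named were those with listed roles and the 6 largest and 6 smallest fold changes where the mean log2 CPM was 5 or more, and from other lists the 2 genes with the smallest p. Mrpl44, Mrpl22, Mrpl17, Mrpl18 and Mrpl52 as list members and further regulators were named after their values were seen. The members, lists and this rule were chosen with earlier results of these data known. Promoters came from RefSeq; GENCODE symbols served to split joined names.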

Additional observations from a re-analysis of the deposited data

Results flagged for a closer look

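The genotype effect differed between cell classes, by the interaction of class and genotype with each library fitted as a block. In cardiomyocytes 49 of 76 members were more lowered than in fibroblasts, against 6.69% of features. The counts were 60 of 77 for macrophages (7.25% of features, with 2 Control libraries) and 53 of 76 for endothelial cells (7.06%). They were smaller with library totals, as given below. For Mrpl12 the log2 fold change in cardiomyocytes minus that in the other class was -1.85 against fibroblasts, -2.10 against macrophages and -1.60 against endothelial cells. For Mrpl55 the same difference was -2.20, -2.19 and -2.21. Groups of 3 libraries are too small for a test of single libraries that stand apart.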

How the results depend on the processing

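Of 459 values of named members under other settings 324 kept their direction and their side of the threshold, 117 lost the call, 8 gained it and 10 changed sign. With library totals alone 15 members were called lower in cardiomyocytes (median log2 fold change -0.48), and Mrpl10 stood at 0.15, Mrpl33 at 0.22, Mrpl52 at 0.37 and Mrps6 at 0.42. With totals that leave out mitochondrially encoded genes 18 were called lower (-0.54), and the same 4 stood at 0.10, 0.18, 0.33 and 0.37. Of all features 495 were called lower and 4265 higher with those totals. In the 4 libraries with joined names, chosen after seeing the data, Mrpl23 stood at 0.65 and Mrps36 at 0.21, and the members' median was -1.36. Control enriched is the only enriched library among them. With preparation as a term, the genotype effect there rests on Control tissue-2 as the single Control library, which was low in both genes. Without the cluster YAP5SAcm 0 members were called by edgeR (42 at an unadjusted p of 0.05, against 1808 of 10305 features), with a median of -0.92. With library totals the members more lowered in cardiomyocytes were 9 against fibroblasts, 18 against macrophages and 8 against endothelial cells. With library totals the genes called lower were 1 assembly factor, 0 biogenesis regulators, 2 mitoribosomal proteins with other symbols, 0 synthetases, 2 genes of mitochondrial DNA, 3 import genes, 44 respiratory chain genes and 4 translation factors. Called higher with library totals were 3 biogenesis regulators, 1 assembly factor, 1 gene of mitochondrial DNA and 1 cytosolic ribosomal protein gene. Of all 11806 features 4350 were called higher and 441 lower on that scale.

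Leaving out 1 library in turn gave 0 to 70 members called lower in cardiomyocytes and a median of -1.62 to -1.23. It gave 6 to 61 members more lowered than in fibroblasts, 18 to 63 than in macrophages and 25 to 60 than in endothelial cells. Members called, in either direction, numbered 0 to 2 in fibroblasts, 0 to 8 in macrophages and 0 to 4 in monocytes. By cluster they numbered 0 to 13 in CM1, 0 to 13 in CM2, 0 to 3 in CM3, 0 to 1 in YAP5SAcm, 0 to 1 in CF2, 0 to 3 in CF3, 0 to 2 in CF4, 0 to 6 in Mac1, 0 to 2 in Mac2 and 0 to 3 in Mac4. Where 1 Control library was left, it is assumed to vary like the others. The cause of these changes was not tested. Outside the fit of all cardiomyocytes these counts stand without the share of all features called. In YAP5SAcm the ratio of summed levels turned from 1.04 to 0.855 with mitochondrially encoded UMIs left out of the total, on 16 to 50 cells per Control library. In all cardiomyocytes this ratio was 0.673, 0.650 with mitochondrially encoded UMIs left out of the total and 0.664 with features as named. No paired analysis was possible because the labels and the deposited table number the YAP5SA tissue libraries differently. Summed cardiomyocyte UMIs were lowest in YAP5SA tissue-1 (1059553) and tissue-2 (1260354), and median UMIs per cardiomyocyte were lowest in YAP5SA tissue-1 (1876) and Control enriched (2204).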
